A study of Mus musculus with 24 samples.

Results

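The response of the liver to a high fat diet without JNK1 in hepatocytes is described in 6 libraries, 3 from mice on chow and 3 from mice on a high fat diet. They were taken by their labels from a set of 24, and all 10562 loci that passed a filter on low values were compared between the diets. JNK1, the product of Mapk8, is a stress-activated kinase that is switched on in the livers of obese animals and has been linked to insulin resistance and to the control of fat burning. In the liver, feeding and insulin turn on genes that make fat from glucose and hold down those that make glucose and break down amino acids, while the fatty acid receptor PPARα drives fat oxidation. Long high fat feeding is known to bring fat storage, insulin resistance and inflammation to the mouse liver.

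The mice of all groups were C57BL/6J and carried an AlbCre+ transgene, whose albumin promoter drives recombination in hepatocytes. The Jnk1 mice had Jnk1flox/flox alleles besides, and they received chow or high fat for 16 weeks. Livers with the transgene alone (control) and livers with Jnk2flox/flox alleles, 3 per diet each, are used for comparison. Livers with both genes targeted (Jnk1Jnk2), also 3 per diet, entered the filter and the fit but are not described here. Other liver cells than hepatocytes keep their Mapk8, and no label gives age, sex or the hour of collection. Whether each replicate is its own mouse is not stated, so the p-values reflect only how the libraries spread within groups, which may be technical.

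Levels are in FPKM, a measure of fragments that corrects for transcript length and library size. A change is a difference of log2(FPKM + 1), high fat less chow, given ± SE with 3 libraries per diet. This scale understates the change of genes with low values. A locus was called when its p-value from limma with Benjamini-Hochberg adjustment over all loci was under 0.05. Levels are given per library in the order of replicates 1, 2 and 3.

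The 6 libraries summed to 635617 to 734352 FPKM and had 0.511 to 0.742 of the relative depth of the deepest library of the set. Chow replicate 1 stood apart: markers of the acinar pancreas summed to 1088 FPKM in it and to 4.44 to 91.8 FPKM in the other 5, and skeletal muscle markers to 250 FPKM, against 59.4 in chow replicate 2 and 1.22 or less in the other 4. The pancreas marker Amy2a5 was at 0 in all 6. Hepatocyte markers, with Alb left out for a 0 in a library, summed to 38609 to 43714 FPKM on chow and 35942 to 42414 on high fat. Of the 15 tested, 4 were higher and 6 lower on high fat, so the sums do not show that the single markers were steady. Y-linked Ddx3y was at 12.8 to 16.5 FPKM and Xist, the RNA of the inactive X chromosome, at 0.02 FPKM or below in the 6 libraries. The first principal component, with 38.4% of the variance of these libraries, had all chow libraries below 0 and all high fat libraries above 0.

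Mapk8 (mm10, chromosome 14, 33377899 to 33447158) was at 1.94, 1.88 and 1.98 FPKM on chow and at 1.92, 1.84 and 1.87 FPKM on high fat. In control livers its level was 5.19 ± 0.521 FPKM (SD, n = 3) on chow and 4.29 ± 0.237 on high fat, so the targeted gene was lower in each Jnk1 library than in the control means. Between the diets it changed by -0.03 ± 0.11 in Jnk1 (adjusted p = 0.897). Mapk9, the gene of JNK2, was at 10.1, 10.5 and 9.01 FPKM on chow and 11.6, 11.1 and 12.0 on high fat, a difference of 0.21 ± 0.08 that did not pass (adjusted p = 0.104).

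High fat feeding changed 1588 of 10562 loci in Jnk1 livers (15.0%), of which 974 were higher (9.22%) and 614 lower (5.81%). Genes for taking up fat, making fat from glucose and responding to interferon were among those that rose, and genes of the urea cycle, amino acid breakdown and microsomal fatty acid hydroxylation were among those that fell. The change exceeded 1 on the log2 scale at 140 of the higher and 79 of the lower loci. The median over all loci tested was 0.04, and the quartiles were -0.14 and 0.22. The diets did not overlap in their 3 values at 3555 loci (33.7%), 1539 of them called, and 3102 loci had an unadjusted p under 0.05 (29.4%). The balance of higher and lower calls depended on the scaling: it was 847 to 912 with size factors, 905 to 908 with quantile normalization and 898 to 948 with the length trend removed. Without chow replicate 1 the count was 1026, and without high fat replicate 1 it was 986.

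**Figure D1:**
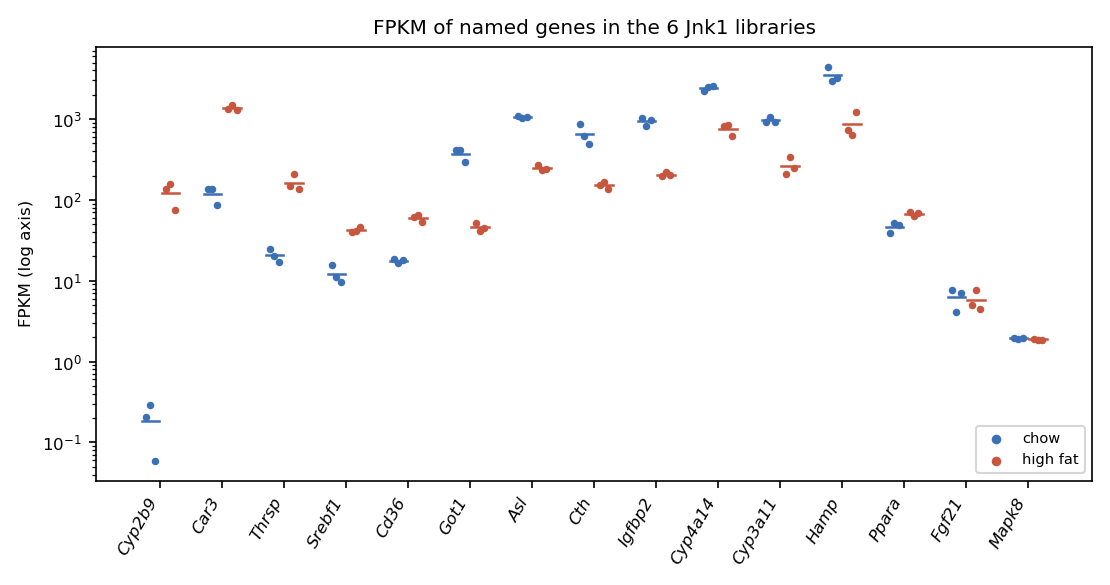
FPKM (log axis) of 15 genes in each of the 3 chow (blue) and 3 high fat (red) Jnk1 libraries, with the mean as a bar. Cyp2b9, Car3 and Thrsp sit higher on high fat in all 3 libraries and Got1, Asl and Cth lower, while the diets overlap for Fgf21 and Mapk8.

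Promoters of 3 genes are shown because they carry a motif that was searched for: Isg15 and Ifit3, interferon response genes that rose, and Asns, the asparagine synthetase gene, which fell. Each is the 200 bases before the RefSeq start (GRCm38.p6), 5′ to 3′ on the gene's strand, with the motif in capitals. The interferon element was searched as GAAA, any 2 bases and GAAA, and the ATF4 element as TGATGNAA, both on either strand, so capitals in Ifit3 show the reverse complement.
Isg15, chr4:156200819-156201018, minus strand: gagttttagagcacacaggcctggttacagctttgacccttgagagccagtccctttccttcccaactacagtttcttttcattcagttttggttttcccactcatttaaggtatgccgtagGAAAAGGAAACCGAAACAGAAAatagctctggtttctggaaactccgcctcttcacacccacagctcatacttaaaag
Ifit3, chr19:34583329-34583528, plus strand: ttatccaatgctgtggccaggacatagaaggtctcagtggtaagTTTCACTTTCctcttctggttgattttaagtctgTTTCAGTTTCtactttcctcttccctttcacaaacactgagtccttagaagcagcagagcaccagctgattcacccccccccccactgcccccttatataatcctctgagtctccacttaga
Asns, chr6:7693210-7693409, minus strand: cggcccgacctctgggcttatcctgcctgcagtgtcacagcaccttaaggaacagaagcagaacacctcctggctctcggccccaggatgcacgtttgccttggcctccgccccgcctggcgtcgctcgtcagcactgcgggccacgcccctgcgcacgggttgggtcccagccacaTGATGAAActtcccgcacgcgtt
In windows of 250 bases before to 50 after the start, 13 of the 24 interferon-list genes with a promoter held the interferon element, against 3.99% of 27025 genes. The Isg15 window held 3 overlapping matches, the farthest 78 bases before the start, and the Ifit3 window held 2. TGATGNAA was in the windows of 4 of 12 ATF4 and CHOP list genes, namely Trib3, Asns, Chac1 and Nupr1, against 4.51% of genes. Of these 4, Asns and Trib3 fell, Chac1 rose and Nupr1 was not called. The sterol element, searched as TCAC, any base and CCAC on either strand, was in 1 of 15 SREBP2 list genes with a promoter, Hmgcs1, against 1.44% of genes. A match describes the letters alone and is not evidence of binding.

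Genes of the urea cycle and amino acid catabolism formed the broadest fall. The list holds 33 genes, all tested, and 21 were lower, 3 higher and 9 not called, with a median change of -0.73. The number lower was 18 to 20 with any 1 library left out and 18 to 22 over all settings tried. Glul, Glud1 and Uroc1 were the 3 higher members, and 1 member was higher without chow replicate 1, high fat replicate 1 or high fat replicate 2. In control livers 16 members were lower and 3 higher, with a median of -0.40.

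Got1 (chromosome 19, 43499753 to 43524605), the cytosolic aspartate aminotransferase gene, was at 411, 412 and 293 FPKM on chow and at 51.9, 41.4 and 45.5 on high fat. Got1 fell by 2.97 ± 0.39 (adjusted p = 8.45e-05), 8.04-fold in mean FPKM. Asl (chromosome 5, 130011503 to 130024331), which encodes argininosuccinate lyase of the urea cycle, was at 1094, 1038 and 1064 FPKM on chow and 273, 232 and 244 on high fat. It fell by 2.09 ± 0.20 (adjusted p = 3.7e-06), with replicates of a diet lying close together. Arg1, the arginase gene that ends the cycle, was at 1874, 1400 and 1849 FPKM on chow and 801, 724 and 702 on high fat, a fall of 1.19 ± 0.18 (adjusted p = 0.000306). Ass1, which encodes the enzyme before Asl, fell by 1.21 on the log2 scale, while Otc, the enzyme gene after carbamoyl phosphate synthesis, was at 0.22 and was not called.

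The locus named Cps1, the gene of carbamoyl phosphate synthetase, spans 454 bases in the table and so covers a fragment of that gene. It was at 2100, 1380 and 1617 FPKM on chow and 521, 521 and 447 on high fat, and fell by 1.76 ± 0.31 (adjusted p = 0.000956). Sdsl, a serine dehydratase-like gene, was at 24.0, 17.8 and 37.7 FPKM on chow and 6.32, 6.19 and 7.11 on high fat and fell by 1.80 ± 0.28 (adjusted p = 0.000344). Sds, the serine dehydratase gene, fell by 1.66, Hal, which opens histidine breakdown, by 0.83 and Tdo2, which opens tryptophan breakdown, by 0.70. Bckdha at -0.16 and Bckdhb at -0.13, subunit genes of the branched-chain keto acid dehydrogenase, were not called.

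**Figure D2:**
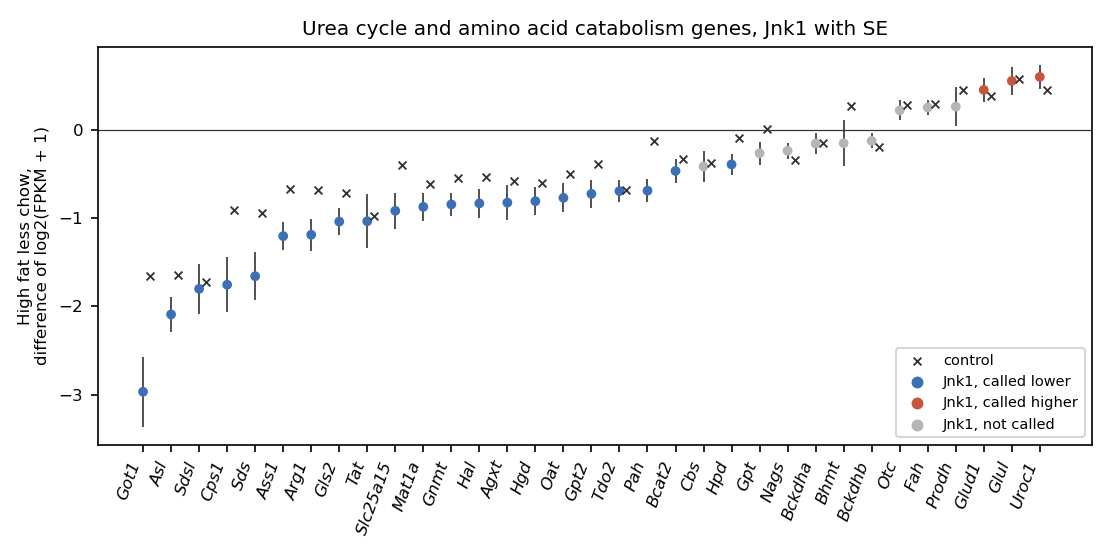
Difference of log2(FPKM + 1), high fat less chow, for the 33 urea cycle and amino acid catabolism genes, with points for Jnk1 (3 libraries per diet) and crosses for control. Bars are the SE of the Jnk1 change from the fit of all 8 groups. The list runs from Got1 at -2.97 to Uroc1 at 0.60, and 21 members were called lower in Jnk1.

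ATF4 is the transcription factor of the amino acid and stress response, and 6 of its 13 tested targets were lower and 1 was higher. The count of lower members was 2 without chow replicate 1 and 3 without high fat replicate 2. Asns (chromosome 6, 7675171 to 7693182) was at 8.16, 10.6 and 17.1 FPKM on chow and 0.251, 0.136 and 1.80 on high fat, and fell by 2.97 ± 0.48 (adjusted p = 0.000459). Cth, which makes cysteine from cystathionine, was at 867, 609 and 493 FPKM on chow and 154, 166 and 138 on high fat and fell by 2.06 ± 0.23 (adjusted p = 1.61e-05). Both kept their call in every setting tried. Chac1 was the higher member, at 1.32, but it was not called without chow replicates 1 or 2 or without any 1 of the high fat replicates (adjusted p = 0.0523 to 0.0797).

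Glucose handling was split. Of 18 genes of gluconeogenesis, glycolysis and glycogen, 6 were higher and 5 lower, with 4 or 5 of each when 1 library was left out. The regulators of glycogen synthesis Ppp1r3b and Ppp1r3c rose by 1.00 and 1.05, although neither was called in a fit of the 2 groups alone (adjusted p = 0.114 and 0.0696) and Ppp1r3b was not called without chow replicate 1, high fat replicate 1 or high fat replicate 2 (adjusted p = 0.114, 0.0706 and 0.0523). Gys2, the liver glycogen synthase gene, was at 139, 123 and 130 FPKM on chow and 59.8, 60.5 and 76.4 on high fat and fell by 0.99 ± 0.24 (adjusted p = 0.00897). G6pc, which releases glucose, fell by 0.87 and Fbp1 by 0.81, while Pck1 was at -0.62 and was not called.

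Insulin-linked genes outside that list moved in both directions. Igfbp2, which encodes a binding protein of insulin-like growth factors, was at 1023, 813 and 968 FPKM on chow and 196, 220 and 201 on high fat, and fell by 2.17 ± 0.30 (adjusted p = 0.000122). Pik3r1, the regulatory subunit gene of the insulin-activated kinase, was at 8.42, 11.8 and 14.9 FPKM on chow and 26.8, 23.8 and 19.4 on high fat and rose by 0.96 ± 0.19 (adjusted p = 0.00224). Igf1 fell by 0.45 ± 0.08 (adjusted p = 0.0014). The insulin receptor gene Insr was at 0.29 and Irs2, an adaptor of the receptor, at -0.46, neither called.

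De novo lipogenesis, the making of fatty acids from carbohydrate, had 6 of 14 tested members higher and 0 lower, with a median of 0.42 and 5 or 6 higher when any 1 library was left out. With the length trend removed 2 members were lower. Srebf1 (chromosome 11, 60199089 to 60220604), the insulin-driven regulator of the pathway, was at 15.8, 11.2 and 9.77 FPKM on chow and 39.6, 41.1 and 46.6 on high fat and rose by 1.73 ± 0.30 (adjusted p = 0.000801). Thrsp (chromosome 7, 97412957 to 97417510), a lipogenic cofactor gene, was at 24.6, 20.4 and 17.0 FPKM on chow and 149, 208 and 135 on high fat and rose by 2.92 ± 0.71 (adjusted p = 0.00885). Fasn, the fatty acid synthase gene, was at 6.71, 9.27 and 6.89 FPKM on chow and 14.2, 16.3 and 11.5 on high fat, a rise of 0.80 ± 0.18 (adjusted p = 0.00451). The 3 chow libraries lay below the 3 high fat libraries for each of these genes, but the diets did not overlap at 1539 of the 1588 called loci. Scd1, the desaturase gene, was at 2.10 and Acly, the ATP citrate lyase gene, at -0.06, neither called.

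Of 11 genes of fatty acid uptake and binding, 3 were higher and 1 lower, with a median of 0.19. Cd36 (chromosome 5, 17781690 to 17888959), a fatty acid transporter gene, was at 18.6, 16.5 and 17.8 FPKM on chow and 61.7, 65.0 and 52.8 on high fat, and rose by 1.70 ± 0.23 (adjusted p = 0.000111). Pparg, a fat storage receptor gene, was at 3.92, 3.77 and 2.46 FPKM on chow and 6.86, 7.42 and 8.26 on high fat and rose by 0.97 ± 0.20 (adjusted p = 0.00262). Slc27a1, a fatty acid transport protein gene, fell by 0.80 ± 0.22 (adjusted p = 0.0181), but was not called without chow replicate 1 or high fat replicates 1 or 3 (adjusted p = 0.0896, 0.0632 and 0.0758). Pnpla2, the main lipase gene of lipid droplets, fell by 1.02 ± 0.19 (adjusted p = 0.00113). Of 11 triglyceride synthesis genes 2 were lower, 1 higher and 8 not called, with a median of -0.07. Dgat1 and Agpat6 fell by 0.55 ± 0.10 and 0.56 ± 0.12 (adjusted p = 0.00144 and 0.00347), while Dgat2 was at 0.42 and not called. Mogat1, a monoacylglycerol acyltransferase gene, rose by 1.04 ± 0.32 (adjusted p = 0.0347), but was not called without chow replicate 3 or high fat replicates 1 or 2 (adjusted p = 0.162, 0.158 and 0.0829). Of 16 lipid droplet and lipolysis genes 4 were higher and 2 lower, and 1 or 2 were higher without any 1 library except chow replicate 2.

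Ppara (chromosome 15, 85735564 to 85806851), the PPARα gene, was at 38.9, 52.1 and 48.7 FPKM on chow and 71.7, 63.1 and 68.4 on high fat and rose by 0.54 ± 0.11 (adjusted p = 0.00278). All 4 tested Cyp4a genes, microsomal fatty acid hydroxylases, fell, with a median of -1.63, and 4 fell with any 1 library left out. Cyp4a14 (chromosome 4, 115486200 to 115496141) was at 2245, 2516 and 2579 FPKM on chow and 810, 844 and 617 on high fat and fell by 1.70 ± 0.34 (adjusted p = 0.00233). Cyp4a12b was at 21.6, 30.3 and 23.8 FPKM on chow and 1.34, 0.375 and 3.03 on high fat and fell by 3.47 ± 0.37 (adjusted p = 9.26e-06). Cyp4a12a fell by 1.37 ± 0.27 (adjusted p = 0.00188), and by 0.91 without high fat replicate 2, and was not called in a fit of the 2 groups alone (adjusted p = 0.0839), where 3 of the 4 fell. Cyp4a, Cyp2b, Acot and Ifit genes, like Hamp and the Saa genes, have close copies in the genome, and how reads were divided among copies is not known.

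Ehhadh, a peroxisomal oxidation gene, was at 350, 423 and 376 FPKM on chow and 141, 142 and 126 on high fat and fell by 1.48 ± 0.35 (adjusted p = 0.00733). Acot1, a thioesterase gene, was at 69.6, 68.0 and 91.5 FPKM on chow and 39.0, 38.7 and 27.3 on high fat, a fall of 1.11 ± 0.19 (adjusted p = 0.000726). Abcd2, a peroxisomal fatty acid importer gene, moved the other way, from 2.52, 2.21 and 3.76 FPKM on chow to 9.41, 9.05 and 9.02 on high fat, a rise of 1.43 ± 0.20 (adjusted p = 0.000157). Ehhadh and Abcd2 were the called members among 15 peroxisomal genes (13.3%), near the 15.0% of all loci. Of 19 genes of mitochondrial fatty acid oxidation 3 were higher and 0 lower (15.8%), with a median of -0.12. Neither list as a whole stood out from all loci. Among the 3 higher mitochondrial members was Hadh, which rose by 0.53 ± 0.11 (adjusted p = 0.00378). The number higher on the mitochondrial list was 1 without chow replicate 1, chow replicate 3 or high fat replicate 3. On that list 3 members were lower with size factors and 4 with the length trend removed. Cpt1a, the entry step of mitochondrial oxidation, was at -0.16 and was not called.

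Fgf21, a hormone gene that PPARα controls, was at 7.60, 4.09 and 7.01 FPKM on chow and 5.05, 7.78 and 4.48 on high fat. The diets overlapped, and the change of -0.09 ± 0.44 did not pass (adjusted p = 0.918).

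Cholesterol synthesis genes rose in part. Of 24 tested SREBP2 targets, genes that answer low cholesterol, 8 were higher and 0 lower, with a median of 0.54. The number depended on the libraries: it was 3 without chow replicate 1, 4 without chow replicate 3, 2 without high fat replicate 1 or replicate 2, and 11 without high fat replicate 3. Hmgcs1 was at 18.3, 21.3 and 16.1 FPKM on chow and 48.2, 74.1 and 26.0 on high fat and rose by 1.25 ± 0.26 (adjusted p = 0.00325). It was not called in a fit of the 2 groups alone (adjusted p = 0.0808), in which 0 members of the list were called. In control livers 1 member was higher and 1 lower, with a median of 0.09, and the difference between the diet changes in Jnk1 and control was 0.94 ± 0.37 for Hmgcs1 (adjusted p = 0.92).

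Bile acid and sterol transporters had 5 of 11 members higher and 1 lower, 3 or 4 higher with 1 library left out. The lower one, Slco1a4, was called without chow replicate 2 or high fat replicate 2 and not without any 1 of the others. Abcb11 (chromosome 2, 69238282 to 69342616), the bile salt export pump gene, was at 25.2, 32.8 and 29.0 FPKM on chow and 53.4, 54.8 and 52.8 on high fat, and rose by 0.87 ± 0.10 (adjusted p = 2.33e-05). Slco1b2, an uptake carrier gene, rose by 0.74 ± 0.14 (adjusted p = 0.00128) and Slc10a2 by 1.31 ± 0.25 (adjusted p = 0.00157). Cyp7b1, an enzyme gene of the alternative bile acid route, fell from 89.8, 111 and 108 FPKM to 45.9, 35.5 and 56.0, by 1.17 ± 0.20 (adjusted p = 0.000685), while Cyp7a1 was at 0.08 and not called. The apolipoprotein genes Apoa5 and Apom fell by 0.72 ± 0.14 and 0.94 ± 0.15 (adjusted p = 0.00146 and 0.000342).

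Drug-metabolising cytochromes held a wide rise and a wide fall. Cyp2b9 (chromosome 7, 26173409 to 26210660) was at 0.207, 0.288 and 0.0590 FPKM on chow and 137, 157 and 75.9 on high fat. It rose by 6.65 ± 0.65 (adjusted p = 3.7e-06), and by 5.97 in control. Cyp2b13, next to it, was listed at 0 in the 3 chow libraries and was at 7.36, 11.4 and 2.48 FPKM on high fat (adjusted p = 0.000998). Cyp3a11 (chromosome 5, 145854607 to 145879854), the main target of the receptor PXR, was at 930, 1070 and 908 FPKM on chow and 207, 336 and 248 on high fat and fell by 1.90 ± 0.29 (adjusted p = 0.000288). In control it fell by 3.45, and the difference between the genotypes was 1.55 ± 0.41 (adjusted p = 0.671).

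Cyp2b9 and Cyp2b13 are normally more active in female than male liver, and Cyp2d9, Cyp4a12a and Cyp7b1 in male liver. Cyp2d9 was at 823, 939 and 779 FPKM on chow and 357, 308 and 444 on high fat and fell by 1.21 ± 0.17 (adjusted p = 0.000116). Of 20 tested genes that growth hormone controls or that differ between the sexes, 4 were higher and 6 lower, and 4 to 7 were lower with 1 library left out and 3 in a fit of the 2 groups alone. Socs2, a feedback gene of growth hormone, fell by 1.15 on the log2 scale, and Ghr, the receptor gene, rose by 0.62. Other male-biased genes, Hsd3b5 at 0.60, Mup20 at -0.40 and Elovl3 at -0.13, were not called.

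**Figure D3:**
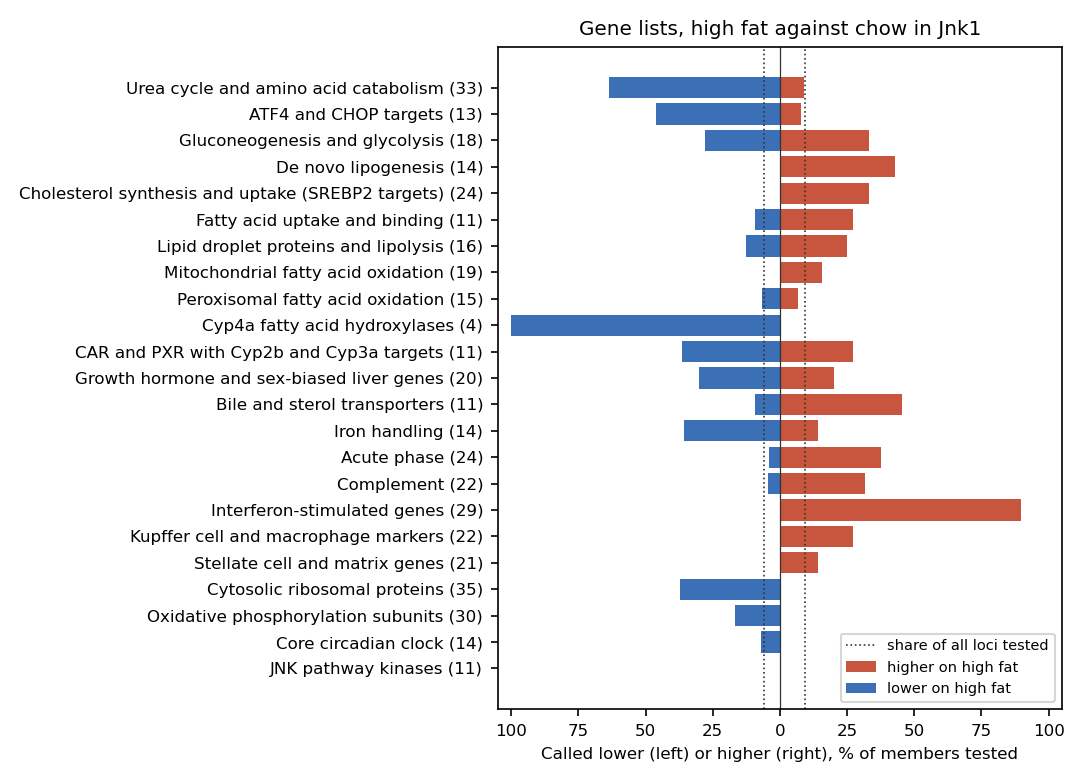
Share of tested members of 23 gene lists called lower (left, blue) or higher (right, red) on high fat in Jnk1, in percent, with the number tested in parentheses and dotted lines at the shares of all loci (5.81% and 9.22%). Interferon genes reach furthest to the right with 26 of 29 higher, and the 4 Cyp4a genes and 21 of 33 amino acid genes lie to the left.

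Interferon-stimulated genes, which cells switch on in defence against viruses, rose almost as a whole: 26 of 29 tested were higher and 0 lower, with a median of 0.78. The number was 24 to 27 with any 1 library left out, 16 in a fit of the 2 groups alone and 12 with a filter of 5 FPKM, which tests fewer of them. In control livers 27 were higher, with a median of 0.92. The summed level of 32 members was 228, 175 and 162 FPKM on chow and 363, 366 and 391 on high fat, with no overlap.

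Isg15 (chromosome 4, 156199424 to 156200818), a ubiquitin-like effector gene, was at 9.83, 4.05 and 7.28 FPKM on chow and 18.0, 20.0 and 19.3 on high fat and rose by 1.39 ± 0.32 (adjusted p = 0.00648). Ifit3 (chromosome 19, 34583529 to 34588982) was at 2.97, 1.55 and 1.60 FPKM on chow and 6.27, 6.27 and 5.88 on high fat, a rise of 1.26 ± 0.23 (adjusted p = 0.000938). Chow replicate 1 was the highest chow library for both genes, and the diets did not overlap, as at most called loci. Gbp3, a guanylate-binding protein gene, rose by 1.37 ± 0.17 (adjusted p = 4.51e-05).

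Macrophage markers rose in part, and in bulk RNA more cells of a type and more RNA per cell cannot be told apart. Of 22 Kupffer cell and macrophage markers 6 were higher and 0 lower, so 27.3% were called, against 15.0% of all loci. The number higher was 2 without chow replicate 1, 1 without high fat replicate 3 and 2 in a fit of the 2 groups alone. These markers summed to 336, 363 and 479 FPKM on chow and 509, 440 and 683 on high fat, so the diets overlapped. No marker was at 0 in all 6 libraries. Clec4f, a Kupffer cell receptor gene, was at 25.6, 26.5 and 26.2 FPKM on chow and 43.1, 39.8 and 57.6 on high fat and rose by 0.80 ± 0.13 (adjusted p = 0.000582). Of 14 genes of lipid-associated macrophages, a separate list, 3 were higher, 0 lower and 11 not called (21.4% called), with a median of 0.52. Lgals1, the galectin 1 gene and a member of it, was at 7.73, 5.90 and 5.59 FPKM on chow and 53.9, 58.3 and 44.1 on high fat and rose by 2.84 ± 0.36 (adjusted p = 4.27e-05). The part of macrophage numbers in the interferon result was not tested.

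Markers of T, B and NK cells and neutrophils summed to 35.6, 18.7 and 22.9 FPKM on chow and 65.4, 81.2 and 194 on high fat, highest in high fat replicate 3. Only 5 of the 21 markers passed the filter. The neutrophil genes S100a8 and S100a9 and the leukocyte gene Ptprc were higher, and the other 2 were not called. S100a8 alone made up a large part of the high fat sums. S100a8, a neutrophil calprotectin gene, was at 11.8, 7.21 and 7.15 FPKM on chow and 31.6, 39.5 and 95.9 on high fat and rose by 2.41 ± 0.57 (adjusted p = 0.00782). The leukocyte gene Ptprc rose by 0.67 ± 0.16 (adjusted p = 0.00682) and Cd74, the MHC class II chaperone gene, by 0.70 ± 0.17 (adjusted p = 0.00909). Among 21 stellate cell and matrix genes 3 were higher and 0 lower, 1 without chow replicate 1, chow replicate 3 or high fat replicate 3. The share called, 14.3%, was near the 15.0% of all loci, so the list as a whole did not stand out. Col3a1, a fibrillar collagen gene, was at 1.54, 1.45 and 1.43 FPKM on chow and 3.57, 3.92 and 5.14 on high fat and rose by 1.06 ± 0.25 (adjusted p = 0.00644). The stellate and matrix list summed to 153 to 174 FPKM on chow and 172 to 211 on high fat.

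**Figure D4:**
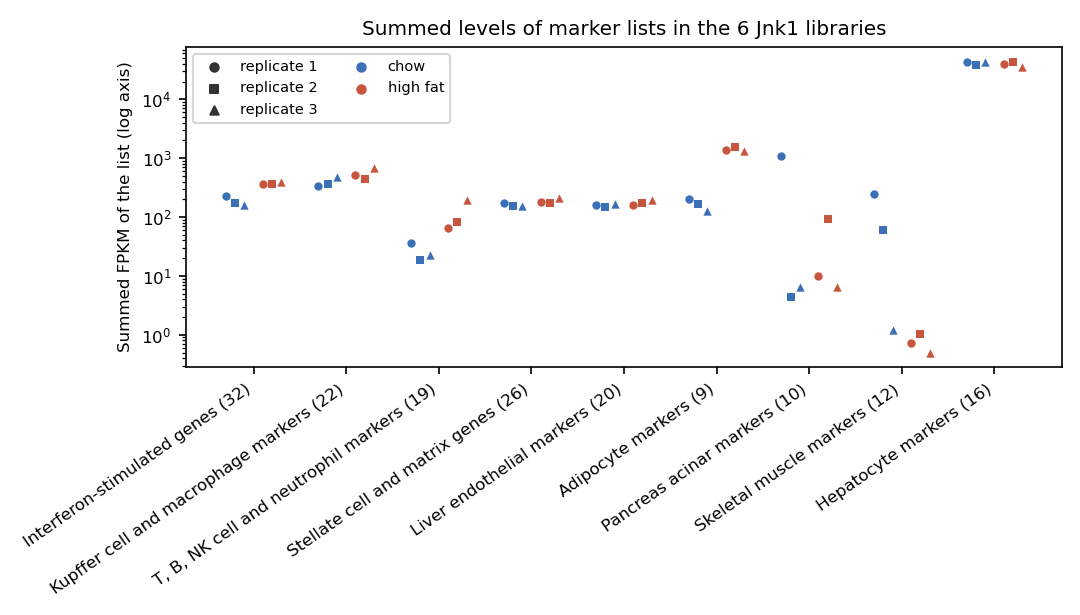
Summed FPKM (log axis) of 9 marker lists in the 6 Jnk1 libraries, chow in blue and high fat in red, with replicates by symbol and the number of loci in parentheses. Interferon genes, adipocyte markers and markers of T, B and NK cells and neutrophils do not overlap between diets. Most of the adipocyte sum is the single gene Car3. Pancreas and skeletal muscle markers are highest in chow replicate 1.

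Acute phase genes, secreted by hepatocytes in inflammation, had 9 of 24 members higher and 1 lower. The number higher was 4 without chow replicate 1 or high fat replicate 2 and 5 without high fat replicate 3. Steap4 was at 16.5, 15.4 and 27.4 FPKM on chow and 62.7, 126 and 83.8 on high fat and rose by 2.13 ± 0.25 (adjusted p = 2.33e-05). Saa4, a serum amyloid gene, was at 64.7, 66.8 and 112 FPKM on chow and 293, 342 and 293 on high fat and rose by 1.96 ± 0.32 (adjusted p = 0.000498).

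Hamp (chromosome 7, 30942369 to 30944017), the gene of the iron hormone hepcidin, was the acute phase member that fell. It was at 4443, 2999 and 3197 FPKM on chow and 732, 630 and 1236 on high fat and fell by 2.07 ± 0.38 (adjusted p = 0.0011). In control it was at -0.24 ± 0.38 (adjusted p = 0.72), and the difference between the genotypes of -1.84 ± 0.53 did not pass (adjusted p = 0.795). Hamp2, a close copy of Hamp, moved the other way in Jnk1 and rose by 1.75 (adjusted p = 0.0334). That call was lost in 6 of 17 other settings, and how reads were divided between Hamp and Hamp2 is not known. Hepcidin is induced by BMP signalling, but a part of that route in the fall of Hamp was not tested. Smad7, a BMP feedback gene, fell by 0.76 ± 0.16 (adjusted p = 0.00281). Id1, a BMP target gene, was at 26.4, 20.9 and 18.1 FPKM on chow and 5.97, 6.45 and 13.1 on high fat and fell by 1.32 ± 0.37 (adjusted p = 0.0193), but had adjusted p = 0.077 without chow replicate 1, 0.0882 without high fat replicate 1 and 0.0743 without high fat replicate 2. Of 14 iron genes 5 were lower and 2 higher, 3 lower without chow replicate 1, high fat replicate 1 or high fat replicate 2, and 1 higher with any 1 library left out.

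Among loci chosen for the size of their change, Car3 (chromosome 3, 14863538 to 14872373), a carbonic anhydrase gene of liver and fat, was at 137, 136 and 86.4 FPKM on chow and 1349, 1487 and 1303 on high fat and rose by 3.54 ± 0.60 (adjusted p = 0.000593). Car3 made up most of the adipocyte marker sum, which was 202, 168 and 128 FPKM on chow and 1399, 1531 and 1346 on high fat. The adipocyte genes Adipoq, Lep, Plin1 and Retn were below the filter, and Fabp4 was at -0.14 and not called. Serpina7, the thyroxine-binding globulin gene on the X chromosome, was at 2.46, 1.82 and 1.32 FPKM on chow and 27.8, 28.6 and 25.4 on high fat and rose by 3.32 ± 0.38 (adjusted p = 1.61e-05).

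E030018B13Rik (chromosome 7, 63916857 to 63920539) was at 18.4, 22.1 and 17.3 FPKM on chow and 0.645, 0.214 and 0.857 on high fat, the smallest adjusted p of the genes named here, and fell by 3.704 ± 0.22 (adjusted p = 4.4e-09). Agxt2l1, which encodes a phospholyase of phosphoethanolamine, was at 87.2, 112 and 102 FPKM on chow and 21.7, 18.0 and 19.3 on high fat and fell by 2.29 ± 0.26 (adjusted p = 1.61e-05). Mir2861 and AK207733 span 82 and 88 bases. They were listed at 0 in the 3 chow libraries, with 795, 948 and 1106 FPKM for Mir2861 and 625, 751 and 1727 FPKM for AK207733 on high fat.

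Of 35 cytosolic ribosomal protein genes 13 were lower, 0 higher and 22 not called, with a median of -0.22, and 6 were lower without chow replicate 3, 7 without high fat replicate 1 and 8 without high fat replicate 2 or in a fit of the 2 groups alone. Rps20 was at 570, 390 and 514 FPKM on chow and 313, 304 and 313 on high fat and fell by 0.64 ± 0.13 (adjusted p = 0.00237). Ribosomal protein transcripts are short, and across 10167 loci the change went with transcript length, at a Spearman correlation of 0.163 and medians of -0.01 in the shortest 10% of transcripts and 0.12 in the longest. With the length trend removed 14 ribosomal members were lower. The core circadian clock had 1 of 14 members called, Bhlhe41, lower, with a median of 0.01. Bhlhe41 was not called without chow replicates 1 or 2 or high fat replicates 1 or 2 (adjusted p = 0.0605 to 0.147), and Arntl at -0.33 and Per2 at 0.65 were not called.

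The diet response in Jnk1 was set beside that in control, which shares no library with it. In control 1717 loci were called (16.3%), 1063 higher (10.1%) and 654 lower (6.19%). The unadjusted p was under 0.05 at 3288 loci there (31.1%). Both contrasts called 900 loci in the same direction, which is 56.7% of the Jnk1 calls and 52.4% of the control calls, and 0 in opposite directions. Of the 1588 loci called in Jnk1, 1550 had the same sign in control, with a median absolute change of 0.55 in Jnk1 and 0.45 in control. These loci were picked by their calls in Jnk1, so the pair of medians is no test. Across all loci the Pearson correlation of the changes was 0.588, as a description, since loci are not independent.

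**Figure D5:**
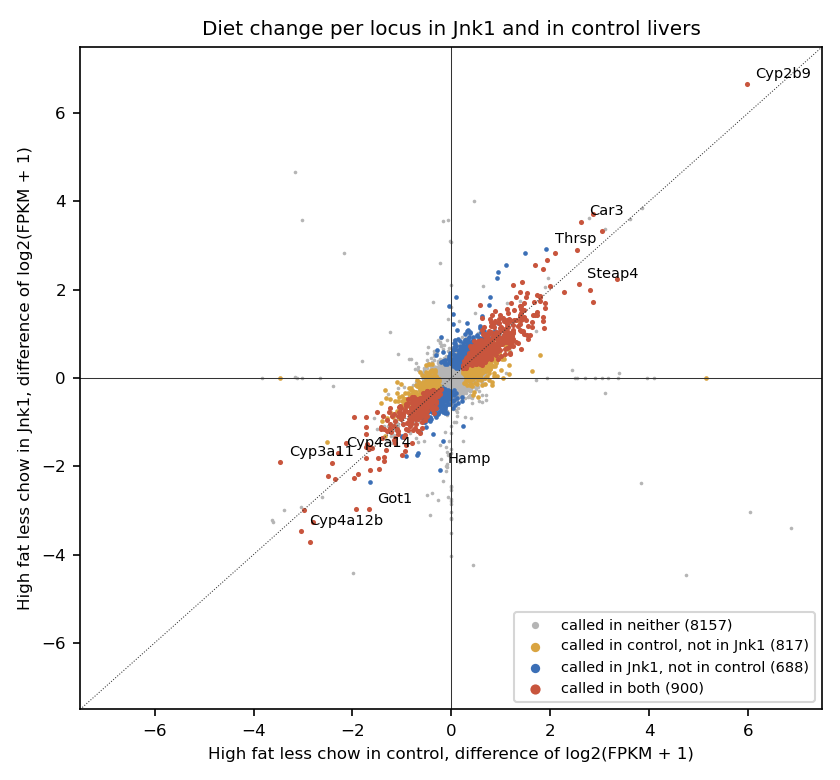
Difference of log2(FPKM + 1), high fat less chow, per locus in control (horizontal) and Jnk1 (vertical), coloured by where the locus was called, with the line of equal change dotted and 2 loci outside the axes. The 900 loci called in both contrasts have the same sign in both, from Cyp2b9 at the top right to E030018B13Rik and Cyp4a12b at the lower left. Some lie off the line, such as Cyp3a11 at -1.90 in Jnk1 and -3.45 in control.

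The test of the difference itself, the diet change in Jnk1 less that in control, called 0 of 10562 loci in limma (0%), and 0 with array weights, while 545 had an unadjusted p under 0.05 (5.16%). The 5 smallest p-values belonged to Mir2861, Mug-ps1, Slc30a10, Fam193b and 2810006K23Rik, with adjusted p between 0.516 and 0.521. Slc30a10, a manganese exporter gene, was at 1.77, 1.45 and 1.88 FPKM on chow and 2.66, 2.79 and 3.22 on high fat in Jnk1. It rose by 0.53 ± 0.12 there (adjusted p = 0.00706) and was at -0.31 ± 0.12 in control (adjusted p = 0.0914), a difference of 0.84 ± 0.18. For Got1 the difference was -1.31 ± 0.56 (adjusted p = 0.921), for Cyp4a14 0.59 ± 0.48 (adjusted p = 0.93) and for Ppara 0.18 ± 0.16 (adjusted p = 0.938). A p that misses the threshold does not show that the genotypes respond alike. A count of 1 was reached in a fit of the groups compared alone, and without chow control replicate 2, high fat control replicate 2 or high fat control replicate 3.

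Set against livers with Jnk2flox/flox alleles (Jnk2), the diet change in Jnk1 differed at 1118 loci (10.6%). Of these, 438 had a higher (4.15%) and 680 a lower change in Jnk1 (6.44%). The unadjusted p was under 0.05 at 2924 loci (27.7%). The balance of higher and lower turned to 604 and 533 with size factors, 671 and 588 with quantile normalization and 439 and 431 with the length trend removed. Without chow Jnk1 replicate 1 the count was 529, without high fat Jnk1 replicate 1 528, without high fat Jnk1 replicate 2 694 and without chow Jnk2 replicate 3 583. The difference went with transcript length, at a Spearman correlation of 0.293 across 10167 loci, and 870 loci were called with the length trend removed. Acot1 fell by 1.11 in Jnk1 and was at 0.63 in Jnk2, a difference of -1.74 ± 0.27 (adjusted p = 0.00125). For Fasn the change was 0.80 in Jnk1 and -0.78 in Jnk2, a difference of 1.58 ± 0.25 (adjusted p = 0.00125), and for Abcb11 it was 0.87 and -0.32, a difference of 1.197 ± 0.15 (adjusted p = 0.000259). For Fgf21 the difference of -1.82 ± 0.62 did not pass (adjusted p = 0.0661).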

How the data were processed

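Liver RNA-seq of 24 libraries was used, 6 of them from Jnk1 mice, and samples were placed in groups of 3 by their titles. The submitters' processing notes name mm10 and the tools TopHat, Cufflinks and Cuffdiff (no version is given in the sources used here). What the authors deposited is FPKM per library for 31027 loci, 571 with several names. Coordinates here count from 1.

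Because FPKM hold no whole reads, count models were not used and absolute depth is unknown. The spacing of low values gave each library's depth relative to the others. At 16 tested loci, Alb among them, a library was at 0 although the median was at least 10 FPKM, and none of these loci was called.

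Differences of log2(FPKM + 1) were tested by limma-trend, with the 8 groups of 24 libraries fitted together and 16 residual degrees of freedom. A filter at a mean of 1 FPKM kept 10562 of 19796 loci above 0, 248 of them with several names. An exact test of 3 against 3 cannot go below 0.1, so none was used.

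The members and the 53 gene lists were chosen with earlier results of these data known. The rule for named genes takes Mapk8, Mapk9, Mapk10, Fgf21 and Ppara, the 10 largest non-overlapping rises and falls called in Jnk1, up to 4 called members per list, and in each interaction up to 10 called loci or the 5 smallest p-values. List members outside the rule are given by their change alone, and genes to print were picked after their values were seen. Mapk10 was below the filter. Same-numbered libraries did not deviate together (correlations of -0.15, -0.136 and -0.001), and the main fit did not treat them as pairs. With 3 libraries per group this check cannot exclude a pairing. Transcript lengths came from GENCODE vM21 by name (10167 loci, 96.3%) and promoters from RefSeq GRCm38.p6. Other settings were the pseudocount, filters, scalings, array weights, a replicate block, the 2 groups alone, the length trend, failed zeros and each library left out. Leaving out loci under 200 bases was added after seeing the data. Software was R 4.3.3 with limma 3.58.1, and Python 3.11.15 with pandas 2.3.3, numpy 2.4.6, matplotlib 3.10.9 and scipy 1.17.1.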

Additional observations from a re-analysis of the deposited data

Results flagged for a closer look

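The diet change differed between Jnk1 and Jnk2 livers at 1118 loci by the interaction test in limma with Benjamini-Hochberg adjustment, and the 10 with the widest difference among the called loci are given as values. The difference, Jnk1 less Jnk2, was -3.05 for Cidec, a lipid droplet gene at 19.7, 14.9 and 16.5 FPKM on chow and 13.8, 10.9 and 13.0 on high fat in Jnk1, and -3.12 for Gm15441. Cidec was not called in Jnk1 (-0.41, adjusted p = 0.493) and rose by 2.64 in Jnk2, from 11.3 ± 4.15 FPKM on chow to 82.9 ± 54.4 on high fat (SD, n = 3, limma adjusted p = 7.82e-05). Gm15441 fell by 2.22 in Jnk1 and was at 0.90 in Jnk2, with 9.91 ± 2.87 FPKM on chow and 22.7 ± 17.8 on high fat there, so the high fat Jnk2 libraries spread widely for both genes. The difference was 3.02 for Cyp2c70, an enzyme gene of mouse bile acids, which was at 10.5, 18.6 and 15.6 FPKM on chow and 46.5, 63.9 and 53.3 on high fat in Jnk1 and at 45.7 ± 5.08 and 24.7 ± 16.6 FPKM in Jnk2. It was 3.19 for Leap2, a liver peptide hormone gene, at 91.8, 109 and 135 FPKM on chow and 861, 958 and 429 on high fat in Jnk1 and at 209 ± 96.0 and 161 ± 96.6 FPKM in Jnk2. Neutrophil genes differed as well, by 3.30 for Prtn3, 3.44 for S100a8 and 3.15 for S100a9. Their chow Jnk2 libraries were at 3.43 ± 4.09 FPKM for Prtn3, 34.7 ± 41.3 for S100a8 and 23.5 ± 25.1 for S100a9. S100a8 and S100a9 had adjusted p = 0.0575 and 0.0694 in a fit of the 4 groups alone.

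Mir2861, AK207733 and AK213200, which span 82, 88 and 272 bases, differed by 9.88, 9.87 and -4.49. AK207733 was not called with no filter on low values (adjusted p = 0.0526) or without chow Jnk1 replicate 1, chow Jnk2 replicate 3 or high fat Jnk1 replicate 1 (adjusted p = 0.0568, 0.0566 and 0.0516). AK213200 was not called with no filter (adjusted p = 0.0664) or with 8 of the 12 libraries left out in turn (adjusted p = 0.0564 to 0.0702).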

How the results depend on the processing

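Jnk1 diet calls numbered 945 in a fit of the 2 groups alone and 986 to 1550 with each library left out. The replicate number as a block gave 1543 calls, 1484 of them shared with the 1588. Control diet calls numbered 3067 with array weights and 1050 to 1619 with a library left out. The difference between Jnk1 and control had 1 call in a fit of the groups compared and 0 to 1 with a library left out. The difference between Jnk1 and Jnk2 had 2430 calls with array weights, 680 in a fit of the groups compared and 528 to 1491 with a library left out. Fgf21 ranged from -0.32 to 0.0535 with a library left out, and was above 0 without chow Jnk1 replicate 1 (0.0535), chow Jnk1 replicate 3 (0.00197) or high fat Jnk1 replicate 3 (0.0470). Of 150 named genes called in Jnk1, 79 kept their call in all settings and 56 lost it in the fit of the 2 groups. The cause of these changes was not tested. With 3 libraries per group and an unknown absolute depth, changes of low genes were not detectable below their spread.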
